A study of Caenorhabditis elegans and Caenorhabditis briggsae and Caenorhabditis remanei with 48 samples.

Results

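In L1 diapause of Caenorhabditis brenneri, ribosome-protected fragments (RPFs) were set against mRNA transcript by transcript. Larvae of the strain PB2801, a species with males and females, hatched without food and arrested as first-stage larvae. Of the 26467 coding sequences with a row in both the RPF and the mRNA table of this species, the 14652 with a mean normalized mRNA signal of at least 50 in diapause were taken (55.4%). One further transcript, or 1 of 14653, passed this limit without a row in the RPF table. Translation efficiency (TE) was log2((RPF + 1)/(mRNA + 1)) less its median over the 14652 transcripts, so that a TE of 1 stands for 2-fold more footprints per mRNA than the median transcript.

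The diapause animals had been starved for 24 h in liquid medium at 20 C and frozen. The developing animals had the same 24 h of starvation and then received bacteria, E. coli HB101, for 3 h (15 mg/mL). Each state was profiled in 3 libraries of RPFs and 3 of mRNA, which were biological replicates prepared from whole-animal populations, 12 of the 48 libraries in the series. The starved and the fed animals of a replicate came from a single batch of worms. The paper describes the mRNA and RPF data as coming from common samples, and the labels number the libraries of both assays alike. Which recovered libraries share a batch or a sample is not known, and the tests leave this pairing out. Larvae of C. elegans, C. briggsae and C. remanei were starved and fed in the same way. The parents of C. brenneri and C. remanei were moved to plates with another E. coli strain to mate. Those of C. elegans and C. briggsae, which are hermaphrodites, were not. The mRNA libraries were made from poly(A)-selected RNA of whole animals, so that the values average over all cells of a larva.

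Larvae that hatch without food stop at this first stage and can survive for long periods until they feed. Protein synthesis costs much of a cell's energy, and its overall rate is low in diapause. The number of ribosomes on a transcript depends on how often translation starts on it and how long each ribosome takes to pass, and footprint counts over mRNA counts measure the result relative to other transcripts. RPF and mRNA signals are reads divided by a size factor of each library, set for each assay on its own, and an overall change of translation is not visible in TE. Both signals of a transcript come from the same coding sequence, and its length therefore cancels in the ratio.

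Read numbers of the single libraries were recovered from the deposited means. The recovered reads summed over coding sequences to 13431015, 11836526 and 7758112 in the diapause RPF libraries a, b and c, and to 20111272, 12905519 and 9318169 in the diapause mRNA libraries a, b and c. The letters only name the libraries. Between library pairs, the SD of the log2 ratio over the 14652 transcripts ranged from 0.409 to 0.535 for RPF and from 0.395 to 0.522 for mRNA. A pair of libraries stood apart for few transcripts. The RPF library c was more than 4-fold above both others, with 1 added to each value, for 36 transcripts, whose median TE was -4.61. The mRNA library a was more than 4-fold below both others for 65 transcripts, among which were 3 of the 10 transcripts with the highest TE. Library a was the lowest mRNA library for all of those 10 in diapause and, by the letters given there, also in developing animals.

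Footprints rose with mRNA over most of the range of abundance, less so among the most abundant mRNAs. Across the 14652 transcripts the correlation of log2 RPF with log2 mRNA was r = 0.84 (Spearman's rho 0.86). This is a description over transcripts that share libraries, not a test. The median transcript had a log2 RPF to mRNA ratio of -0.37 before centring. TE had a standard deviation of 1.05 on the log2 scale, and 72.8% of transcripts lay within 2-fold of the median. The tail was longer on the low side. TE was above 1 for 1613 transcripts (11.0%) and below -1 for 2375 (16.2%), while 61 were above 2 and 727 below -2. The 5th and 95th percentiles were -1.99 and 1.29. Over the 9 pairs of 1 RPF library with 1 mRNA library the standard deviation of TE ranged from 1.02 to 1.25, the share above 1 from 10.7% to 15.7% and the share below -1 from 15.7% to 17.9%. These pairs were formed without knowing which libraries share a sample.

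**Figure D1:**
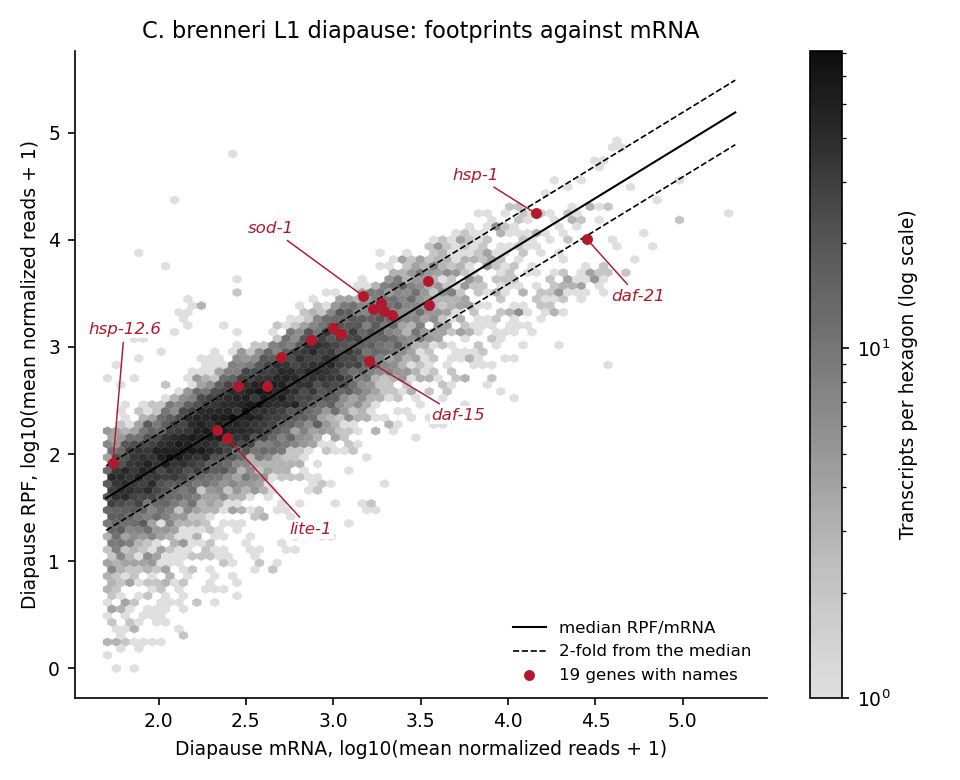
Mean normalized RPF signal against mean normalized mRNA signal in C. brenneri diapause, both as log10 of the value plus 1, for 14652 transcripts, with darker hexagons holding more transcripts. The solid line is the median ratio, the dashed lines lie 2-fold from it, and red points are the 19 genes with names. Many of the most abundant mRNAs lie below the lower dashed line.

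The spread of TE was larger than the error between libraries. The standard error of TE had a median of 0.143 over the 14645 transcripts with all libraries recovered, with 10th and 90th percentiles of 0.103 and 0.303. The mean squared standard error was 4.24% of the variance of TE. By limma with Benjamini-Hochberg adjustment, TE differed from the median transcript at an adjusted p under 0.05 for 9225 of 14645 transcripts (63.0%), of which 4405 were higher (30.1%) and 4820 lower (32.9%). A call against the median is thus the common case. Beyond 2-fold, limma's treat test called 182 transcripts higher and 1050 lower. The remaining 7 transcripts, with TE from -3.06 to 1.35, were not tested.

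Limits of the choice by mRNA level were also examined. The 619 transcripts with an mRNA signal from 50 to 60 had a median TE of 0.03 (SD 1.26), and the 683 from 40 to 50, just outside, had a median of -0.04 (SD 1.26). RPF signal was under 10 for 198 of the 14652 transcripts and 0 for 2, so that their TE rests on few footprints and on the pseudocount of 1.

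The most abundant mRNAs carried few footprints per mRNA in diapause. The 100 transcripts with the highest mRNA signal, of 18407 or more, had a median TE of -2.11. TE was below -1 for 69 of them and below -2 for 58. By limma, 72 of the 94 tested had TE lower than the median transcript at an adjusted p under 0.05 and 5 had it higher, beside 32.9% lower and 30.1% higher over all 14645. The ranking by diapause mRNA, the denominator of TE, favours low TE, and these counts are a description. The mRNA values of single libraries behind them were settled with the deposited variance ratio. TE in this group was uneven. The 58 transcripts below -2, a limit that fixes their upper edge, had quartiles of -2.54 and -2.18, and 1 lay below -5. TE was at least -0.50 for 25 others. Between these groups, 7 lay from -2 to -1.5, 4 from -1.5 to -1 and 6 from -1 to -0.5. TE lay nearer to the median at lower mRNA ranks. The median TE was -1.13 for ranks 101 to 200, -0.29 for ranks 201 to 500 and -0.08 for ranks 501 to 1000. Over all 14652 transcripts TE and log2 mRNA were nearly unrelated (r = -0.09, rho -0.07), although both hold the mRNA value.

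After feeding, the same 100 transcripts stood near the median. Their median TE was -2.11 in diapause and -0.23 in developing animals, and TE was below -1 for 69 in diapause and 8 in developing animals. The difference in TE was tested with the interaction of assay and state in limma. It was lower in diapause for 61 of the 94 tested (64.9%) and higher for 1, against 5.69% lower and 1.49% higher over all 14645 transcripts. The choice by diapause mRNA favours the lower direction. When the 100 transcripts were chosen by mRNA in developing animals instead, a choice made after seeing the data, the median diapause TE was -2.15 and 68 of 94 tested were lower in diapause.

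The shares of signal show where this difference lies. From the deposited means, all 100 transcripts took 12.6% of the RPF signal of the 14652 in diapause and 21.5% in developing animals. Their mRNA share was 23.9% and 26.9%. Single libraries were recovered for 57 of the 58 with TE below -2 and for 37 of the 42 others. The library shares below therefore leave out mostly transcripts of higher TE. In diapause, 94 of these 100 transcripts took 12.1%, 8.11% and 8.82% of the RPF signal of all fully recovered transcripts in libraries a, b and c. In developing animals they took 19.0%, 20.3% and 20.1% of the RPF signal. Each diapause RPF library was below every developing one. The mRNA shares were 19.6%, 22.7% and 21.0% in diapause, against 24.5%, 26.2% and 23.8% in developing animals, and these groups did not overlap either. With 3 libraries against 3, the smallest p of an exact two-sided permutation test is 0.10. For the 57 of them with TE below -2, a group chosen by diapause TE and given as a description, the RPF share was 3.93%, 1.66% and 2.45% in diapause and 11.6%, 12.1% and 12.6% in developing animals. Their mRNA share was 12.4%, 15.0% and 13.0% in diapause and 17.3%, 18.9% and 16.5% in developing animals. The diapause RPF library a held more of these footprints than b and c, and the median TE of the 100 most abundant mRNAs ranged from -3.17 to -1.12 over the 9 pairs of single libraries. Without library a of diapause RPF it was -2.68.

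**Figure D2:**
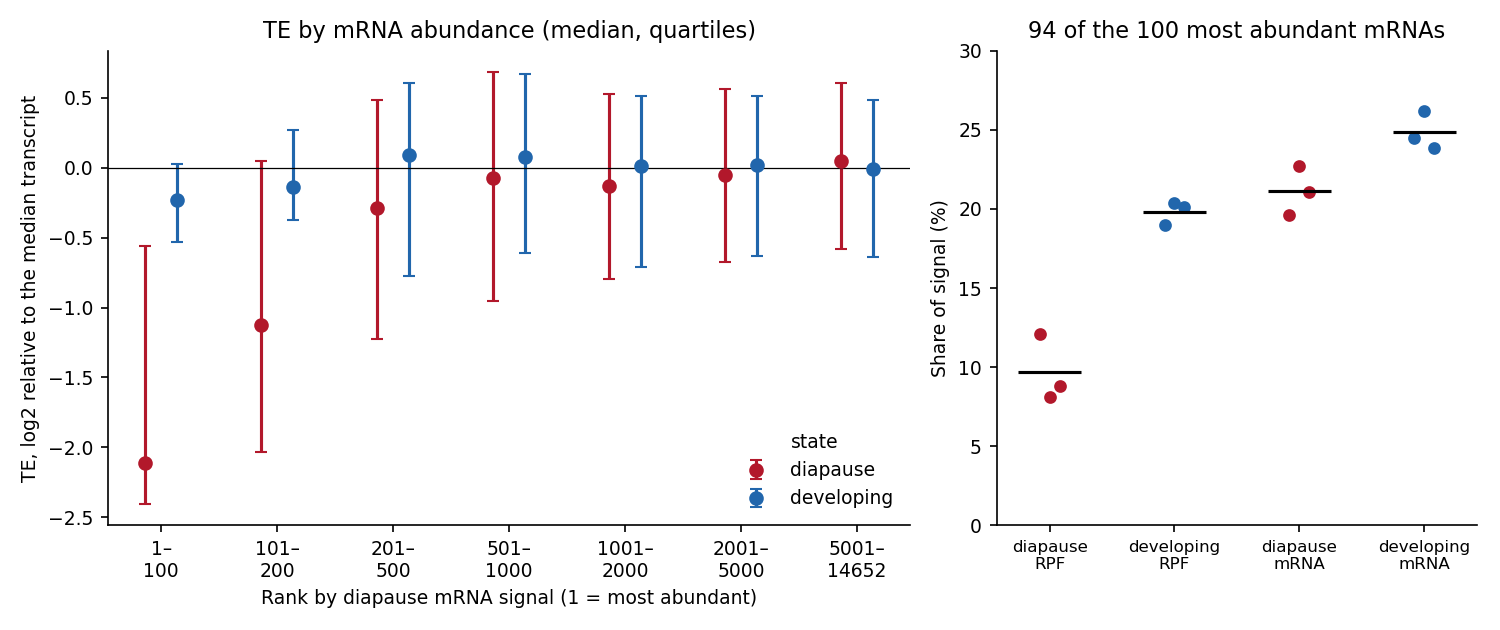
Left, TE by rank of diapause mRNA signal, with points at the median and bars from the lower to the upper quartile over transcripts, for diapause and developing animals; the median of ranks 1 to 100 is -2.11 in diapause and -0.23 in developing animals. Right, share of the signal of all fully recovered transcripts, in percent, taken by 94 of the 100 most abundant mRNAs in each library (points) and the mean of 3 libraries (line), from 8.11% to 12.1% for diapause RPF and from 19.0% to 20.3% for developing RPF. For all 100, the RPF share from the deposited means is 12.6% in diapause and 21.5% in developing animals.

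On feeding, the paper reports strong rises in translation efficiency and modest rises in mRNA for ribosomal protein genes of each species. The identities of most of the 100 most abundant transcripts are not known here, and how many encode ribosomal proteins was not examined. One of the 100, daf-21, could be named and is described with the other named genes. Some may be counted more than once, since 8 of the 100 had another transcript of the group within 5% in all 4 means, and reads that fit several coding sequences were counted for each. The 5 transcripts of highest mRNA signal, from 70128 to 194043, had TE between -3.06 and -0.95. The 5 of highest RPF signal, from 55297 to 84080, had TE between 1.01 and 8.31. Of the 100 transcripts with the highest RPF signal, 37 were also among the 100 with the highest mRNA signal. These RPF-rich transcripts had a median TE of 0.75, and being chosen by RPF they are high in TE in part by the choice.

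At the extremes TE ran from -5.87 to 8.31. The transcript CN32301 had the highest TE, at 8.31. Its RPF signal was 24616, 69956 and 96425 in libraries a, b and c of diapause, and its mRNA signal was 42.6, 491 and 239. Footprints exceeded mRNA in every library pair, and library a was the lowest in both assays. The 10 highest values were all at least 4.19, with RPF from 1128 to 63666 and mRNA from 74.0 to 268.6. In developing animals CN32301 had a TE of 9.26. The paper describes poly(A) selection for the mRNA libraries only, and its part in these high ratios was not tested. The lowest TE, -5.87, belonged to CN08669, with no footprint in any of the 3 diapause RPF libraries and mRNA signals of 55.4, 92.5 and 75.5. Against a floor of 3 reads over the group, its ratio was at least 47.2-fold lower than that of the median transcript, with counting error only in this limit. The 10 lowest values lay between -5.87 and -5.42, with RPF from 0 to 30.4 and mRNA from 57.1 to 1820. In 4 of these 10, RPF library c was more than 4-fold above both others with 1 added to each value. These 20 transcripts were picked by their TE, and no test is given for them as a group.

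TE in diapause ranked transcripts much as TE in developing animals did. Across the 14652 transcripts the correlation of the 2 states was r = 0.88 (rho 0.86), a description over transcripts. Of the 727 transcripts below -2 in diapause, 491 (67.5%) were also below -2 in developing animals, where 701 were. Of the 61 above 2, 38 (62.3%) were above 2 in developing animals. The upper side was wider in diapause, with 11.0% of transcripts above 1, against 7.01% in developing animals. The share below -1 was 16.2% in diapause and 15.7% in developing animals.

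The difference of TE between the states passed the interaction test for 1051 of 14645 transcripts (7.18%). TE was lower in diapause for 833 (5.69%) and higher for 218 (1.49%). In an alternative, the zero point of TE in each state was set by the summed RPF and mRNA signal of the state's means. This scaling to the summed signal shifts the median difference by 0.24 on the log2 scale. The split was then 626 lower and 2193 higher, so that the direction of the majority depends on the scaling. The values given here are relative to the median transcript. The 833 transcripts were abundant, with a median mRNA signal of 1030 in diapause, against 301 over all tested transcripts. Their median TE was -0.90 in diapause and 0.19 in developing animals. The 218 transcripts with higher TE in diapause had a median mRNA signal of 297, near that of all transcripts, and a median TE of 0.42 in diapause and -0.33 in developing animals. Without library c of developing RPF the calls fell to 540 lower and 90 higher, and without library c of developing mRNA to 548 lower and 93 higher.

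Among transcripts with at least 50 in both assays and states, CN35058 had the largest difference in the lower direction. Its RPF signal was 88.8, 137 and 132 in diapause and 21427, 16165 and 16880 in developing animals. Its mRNA signal was 1331, 1438 and 974 in diapause and 17861, 15693 and 13777 in developing animals. Both assays were lower in every diapause library, and the RPF more so, with a difference in TE of -3.48 ± 0.28 (SE, n = 3 libraries per group, limma adjusted p = 0.000287). In the other direction CN16043 had RPF signals of 1136, 1313 and 1886 in diapause and 452, 355 and 306 in developing animals. Its mRNA signal was 1656, 1747 and 1465 in diapause, against 1516, 1389 and 1333 in developing animals. The mRNA ranges overlapped and the RPF ranges did not, and the difference in TE was 1.85 ± 0.27 (SE, limma adjusted p = 0.00205). The 5 largest differences ran from -3.48 to -3.23 on the lower side and from 1.45 to 1.85 on the higher side.

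Names were available for 19 C. brenneri transcripts, the orthologs of heat-shock, autophagy, dauer and superoxide dismutase genes that the study listed for a change of RPF level on feeding. The list was chosen on these samples, so that its direction between the states is not independent evidence. The choice used diapause RPF values, which also enter TE, and the counts of TE within diapause are a description. The roles given below are those known from C. elegans. In diapause, 12 of the 19 had TE higher than the median transcript, 2 lower, and 5 did not pass the test, beside 30.1% higher and 32.9% lower over all transcripts, and their median TE was 0.64. None of the 19 had a higher TE in diapause than in developing animals at a limma adjusted p under 0.05 (6 at an unadjusted p under 0.05), and 4 had a lower one.

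Small heat-shock proteins were represented by 4 genes of the list, of which 3 had TE higher than the median transcript and hsp-12.6 did not pass the test. For hsp-43 the RPF signal was 1513, 1525 and 1509 in libraries a, b and c, and the mRNA signal was 1058, 967 and 950. The replicates were close in both assays, and TE was 0.98 ± 0.10 (SE, n = 3 libraries per assay, limma adjusted p = 0.000307). For hsp-17 the RPF signal was 436, 458 and 393 and the mRNA signal 289, 278 and 281, which gave a TE of 0.97 ± 0.10 (adjusted p = 0.000395 by limma). For hsp-12.3 the RPF signal was 923, 1374 and 1164, the mRNA signal 907, 803 and 521, and TE 1.00 ± 0.25 (limma adjusted p = 0.0104). These 3 genes stood between the 88th and the 89th percentile of all transcripts. The low-level gene hsp-12.6 had RPF signals of 34.2, 112 and 100 and mRNA signals of 66.2, 73.8 and 21.4. Its ranges overlapped before centring, and its TE of 0.97 ± 0.61 did not pass the limma test (adjusted p = 0.200).

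The larger chaperones differed from each other. The gene daf-21 encodes Hsp90, a chaperone of signalling proteins. Its RPF signal was 10462, 10137 and 10145 in diapause, and its mRNA signal was 26476, 33233 and 24643. TE was -1.09 ± 0.14 (limma adjusted p = 0.000698), which put daf-21 at the 14th percentile. In developing animals its RPF signal was 40926, 38042 and 49210 and its mRNA signal 52228, 48526 and 40814. RPF levels were lower in every diapause library than in any developing one, by a larger factor than mRNA levels, and TE differed by -1.19 ± 0.20 (limma adjusted p = 0.00481). The study's tables give this identifier under a pair of names, daf-2 and daf-21, and the name of the Hsp90 gene is used here.

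The cytosolic Hsp70 gene hsp-1 had RPF signals of 18111, 17666 and 17092 and mRNA signals of 13526, 16304 and 13372 in diapause, with a TE of 0.66 ± 0.12 (limma adjusted p = 0.00263). The mitochondrial Hsp70 gene hsp-6 had RPF signals of 2450, 2335 and 1965 and mRNA signals of 1646, 1776 and 1657 in diapause, with a TE of 0.78 ± 0.12 (limma adjusted p = 0.0016). Both stood above the median transcript in diapause and higher still in developing animals, where their TE was 1.29 and 1.50. The differences were -0.63 ± 0.15 for hsp-1 (limma adjusted p = 0.0309) and -0.73 ± 0.16 for hsp-6 (limma adjusted p = 0.0227). With each state scaled to its summed signal the limma adjusted p was 0.0863 and 0.056, and leaving out single libraries raised it to at most 0.0802 and 0.0622. The mitochondrial chaperonin gene hsp-60 had RPF signals of 2099, 1873 and 2002 and mRNA signals of 2318, 2194 and 1952 in diapause. Its TE of 0.25 ± 0.11 did not pass the limma test (adjusted p = 0.0839) in diapause, while in developing animals TE was 1.07. This difference, -0.82 ± 0.18, passed at a limma adjusted p of 0.018, and at 0.0503 without library b of diapause RPF. For hsp-3, an Hsp70 of the endoplasmic reticulum, TE was 0.62 ± 0.19 (limma adjusted p = 0.0264, at most 0.0873 with a library left out), against 0.89 in developing animals.

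**Figure D3:**
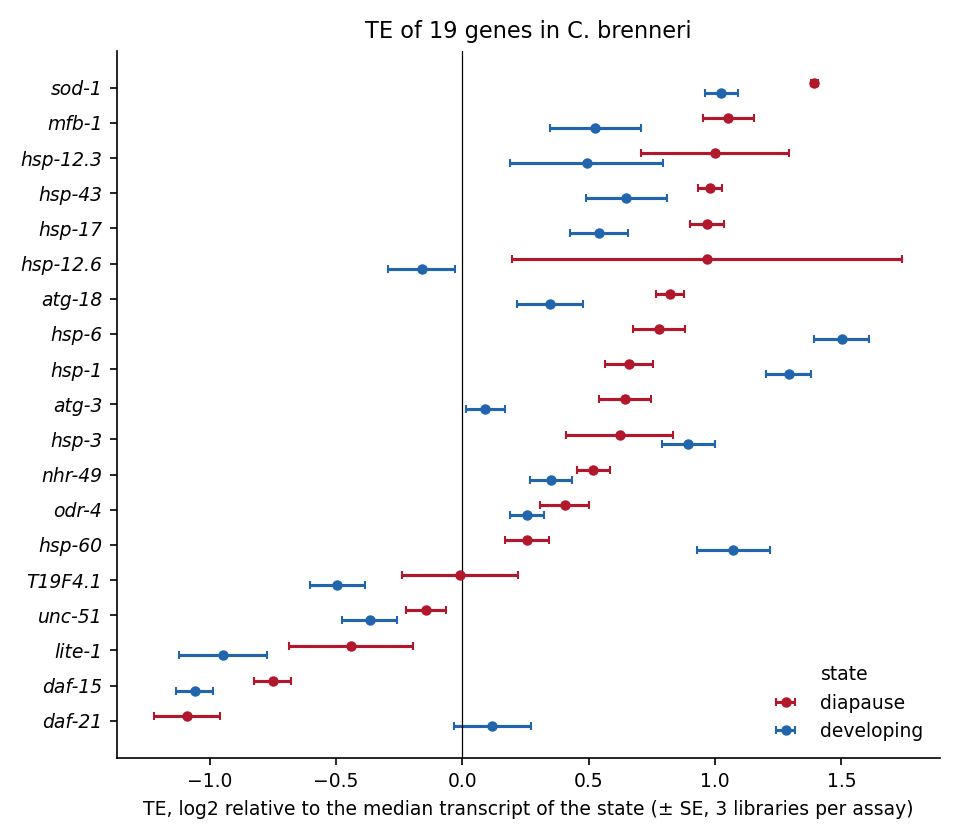
TE of the 19 named genes relative to the median transcript of each state, in diapause and in developing animals, on the log2 scale. Bars are ± 1 standard error computed from the log2 values of 3 RPF and 3 mRNA libraries per state, without limma's moderation. They differ from the SE printed in the text. The genes daf-21, hsp-60, hsp-1 and hsp-6 lie lower in diapause than in developing animals, and sod-1 has the highest TE in diapause, 1.39.

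Autophagy digests cell contents to supply nutrients during starvation. The gene atg-18, which encodes a lipid-binding protein needed to form autophagosomes, had RPF signals of 2428, 2530 and 2758 and mRNA signals of 1890, 1906 and 1834. Its TE of 0.82 ± 0.10 passed the limma test (adjusted p = 0.000596). The gene atg-3, which encodes an enzyme that attaches the ubiquitin-like Atg8 proteins to lipid, had a TE of 0.64 ± 0.12 (limma adjusted p = 0.00344). The kinase gene unc-51, which starts autophagy, had RPF signals of 2432, 2428 and 2587, each below all of its mRNA signals of 3849, 3541 and 3233. With TE at -0.14 ± 0.11 it did not differ detectably from the median (limma adjusted p = 0.281). The TE of atg-3 was 0.55 ± 0.15 higher than in developing animals, which missed the threshold (limma adjusted p = 0.0506). It passed, with the limma adjusted p in parentheses, with at least 50 mRNA in both states (0.0424), with at least 50 in both assays and states (0.0378), without library a of diapause RPF (0.0491) and without library b of diapause mRNA (0.0413). Scaled to the summed signal, that difference and those of sod-1, atg-18, mfb-1, daf-15, hsp-17 and hsp-43 passed it, with adjusted p between 0.00984 and 0.0483.

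The gene sod-1, which encodes the cytosolic copper and zinc superoxide dismutase, had the highest TE of the named genes. Its RPF signal was 3035, 2946 and 3031 and its mRNA signal 1466, 1475 and 1485. The libraries hardly differed, and TE was 1.39 ± 0.09 (limma adjusted p = 0.000121), the 96.5th percentile of all transcripts. The F-box gene mfb-1, related to an atrophy gene of mammalian muscle, followed with a TE of 1.05 ± 0.12 (limma adjusted p = 0.000484). The nuclear hormone receptor gene nhr-49, which controls fat use in fasting, had RPF signals of 2106, 2218 and 2129 and mRNA signals of 2104, 1850 and 1861. It was moderately above the median, with a TE of 0.52 ± 0.10 (limma adjusted p = 0.00431).

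In the opposite direction, daf-15, which encodes the Raptor subunit of the TOR kinase complex, had RPF signals of 679, 752 and 772 and mRNA signals of 1561, 1703 and 1523. Each RPF value was below each mRNA value before centring, which alone does not place a gene below the median. TE was -0.75 ± 0.11 (limma adjusted p = 0.00107). It was -1.06 in developing animals, and the difference of 0.31 ± 0.14 did not pass (limma adjusted p = 0.201). The light receptor gene lite-1 had a TE of -0.44 ± 0.21 (limma adjusted p = 0.110) and T19F4.1 one of -0.01 ± 0.20 (limma adjusted p = 0.924). The gene odr-4, needed to place odorant receptors in cilia, had a TE of 0.41 ± 0.12 (limma adjusted p = 0.0216, at most 0.060 with a library left out).

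The same 19 genes had a value in diapause of all 4 species. TE of C. brenneri correlated over these genes with that of C. elegans at r = 0.83, of C. briggsae at 0.58 and of C. remanei at 0.90, given as a description over 19 genes chosen by the study. Each species' TE is relative to its own median. The gene sod-1 was the most alike, with 1.39 in C. brenneri, 1.47 in C. elegans, 1.45 in C. briggsae and 1.43 in C. remanei. The genes daf-21 and daf-15 were below the median in each species, with daf-21 at -1.09 in C. brenneri, -1.91 in C. elegans, -0.55 in C. briggsae and -1.16 in C. remanei. The widest range was that of hsp-60, with 0.25 in C. brenneri, 1.63 in C. elegans, -2.07 in C. briggsae and 0.51 in C. remanei. In unc-51 C. brenneri was the lowest, at -0.14, against 0.39 in C. elegans, 1.29 in C. briggsae and 0.68 in C. remanei. No error between libraries was computed for the other species, and these differences were not tested.

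Over all transcripts above the same mRNA limit, TE in diapause was spread in C. brenneri as in C. elegans. The standard deviation was 1.05 in C. brenneri, 1.06 in C. elegans (13977 transcripts), 1.33 in C. briggsae (10825) and 1.30 in C. remanei (13403). The share of transcripts below -1 was 16.2% in C. brenneri, 16.9% in C. elegans, 20.8% in C. briggsae and 19.8% in C. remanei. The RPF signal was concentrated to unlike degrees, since 50% of it lay in 945 transcripts in C. brenneri, 879 in C. elegans, 3 in C. briggsae and 2 in C. remanei. This left less of the RPF signal for all other transcripts in C. briggsae and C. remanei, and its part in their wider spread was not tested.

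**Figure D4:**
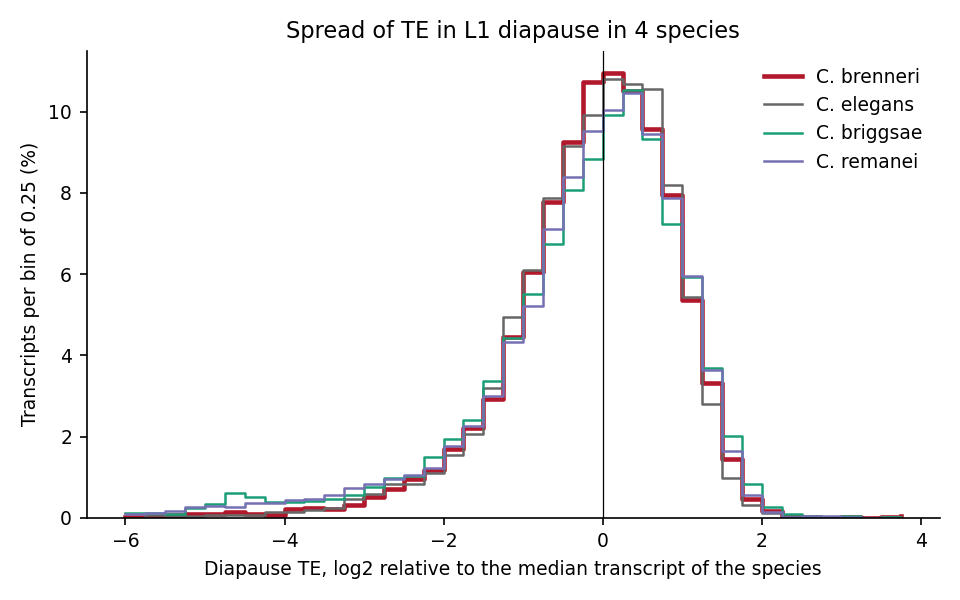
Distribution of diapause TE in 4 species, as the percentage of transcripts per bin of 0.25 on the log2 scale, each centred on its own median. The curves of C. brenneri (SD 1.05) and C. elegans (SD 1.06) nearly coincide, while C. briggsae and C. remanei have more transcripts in the low tail.

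The low TE of abundant mRNAs was not particular to C. brenneri. Among the 100 most abundant mRNAs of each species, median TE in diapause was -2.11 in C. brenneri, -2.32 in C. elegans, -4.47 in C. briggsae and -2.53 in C. remanei. The median in developing animals was -0.23, 0.17, -0.38 and -0.11 in the same order of species. TE was below -1 in diapause for 69 of these 100 in C. brenneri, 65 in C. elegans, 89 in C. briggsae and 76 in C. remanei. Each group was chosen by diapause mRNA, which favours low diapause TE, and the differences between species were not tested.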

How the data were processed

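After adaptor trimming, the authors aligned reads with Bowtie 0.12.7 to WS230 genomes and coding sequences and counted, per coding sequence, those with a single genomic position. The deposited signal is the authors' mean of DESeq-normalized reads over the 3 libraries of a state, for each species and assay separately. The deposited variance ratio columns give the variance between libraries over the one the authors' DESeq run fitted. The tables also hold the authors' fold changes and p-values of developing against diapause animals, which were not used.

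The means are printed with enough digits that only one set of 3 whole read numbers fits nearly every mean. These were recovered here for 14645 of the 14652 transcripts. For 88 RPF and 124 mRNA means of diapause, several sets fitted and the deposited variance ratio chose between them. Only sets with every library within a set distance of the mean were candidates. The largest means were always settled in this way, among them the mRNA means of the 100 most abundant mRNAs of diapause. The library values of their mRNA therefore rest on this choice. For means of at least 50 with a single fit, 13365 for diapause RPF and 14528 for diapause mRNA, the ratio was a check. The recovered variance divided by this ratio was compared with its running median along the mean signal. It deviated by a median of 3.3% in diapause RPF and 2.61% in diapause mRNA, against 321% and 260% with values shifted to another transcript. The settled means were not part of this check. Recovered libraries carry no replicate number, and their letters order the libraries within a group only. The reads cover 96.9% of the diapause RPF signal and 98.6% of the mRNA signal. Normalized values, printed as signal, are these reads over the size factors.

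TE was tested in limma 3.58.1 (R 4.3.3) on log2(value + 1), with each assay centred on the median over the transcripts and Benjamini-Hochberg adjustment over all 14645. The state difference was the interaction of assay and state. The printed TE is from the deposited means and its SE is limma's. The SE and p-values are moderated, as limma draws each transcript's variance between its 3 libraries per group toward a common value. For sod-1 the diapause SE was 0.089 by limma and 0.015 from its own libraries. For hsp-12.6 these were 0.61 and 0.77. In simulated data at these library sizes with 200 transcripts changed 2-fold, 189 were recovered in the TE test, with 7 false calls, and 107 in the test between states, with 6. The simulation used a fixed spread between libraries that was not fitted to these data. RPF means were set equal to mRNA means, and no other transcript was changed. These counts check the procedure and do not give its error rates on these data. Alternatives were other mRNA limits, pseudocounts, an RPF limit, scaling to the summed signal, centring on the mRNA-weighted mean, voom weights, and leaving out each library. Gene names come from the study's list of genes of interest, whose ratios between states matched 1 identifier each for all 19 genes. No C. brenneri identifier matched a reference table, so that functional groups and sequences were not analysed here. Named transcripts are the highest and lowest in TE, the largest differences between states and the 19 listed genes. The members and lists were chosen with earlier results of these data known.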

Additional observations from a re-analysis of the deposited data

Results flagged for a closer look

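TE differed between the states, by the interaction of assay and state in limma, for 833 of 14645 transcripts lower in diapause (5.69%) and 218 higher (1.49%). Scaled to the summed signal, 626 were lower and 2193 higher, so that the direction of the majority depends on the scaling. Among the named genes, the diapause less developing difference in TE was -1.19 for daf-21, -0.82 for hsp-60, -0.63 for hsp-1 and -0.73 for hsp-6. The differences of hsp-1 and hsp-6 lost their call with that scaling and without some single libraries. That of hsp-60 lost it without library b of diapause RPF. No group has the 4 samples that a test for an outlying sample needs.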

How the results depend on the processing

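No paired analysis was possible because the recovered libraries carry no replicate number. Both states of a replicate came from a single batch, and both assays of a state from common samples. Leaving out 1 library at a time gave an SD of TE from 1.04 to 1.12, 10.3% to 12.3% of transcripts above 1, 15.7% to 16.8% below -1, 3618 to 4175 transcripts called above and 4223 to 4595 below the median, a median TE of the 100 most abundant mRNAs from -2.68 to -1.89, and 540 to 811 transcripts lower and 90 to 211 higher in diapause than in developing animals. An RPF limit of 50 gave an SD of 0.90, with 9.17% above 1 and 13.8% below -1. An mRNA limit of 10 gave 17.9% below -1. Scaling to the summed signal gave 14.4% above 1, 13.8% below -1 and 2193 transcripts with TE higher in diapause, and centring on the mRNA-weighted mean, which moves the median transcript to 0.64, gave 34.5% and 7.56%. The median TE of the 500 most abundant mRNAs was -0.67. A limit beyond 2-fold, chosen after seeing the data, left 182 transcripts above and 1050 below the median, and 35 lower and 0 higher in diapause by limma's treat (5 higher at an unadjusted p under 0.05). By interquartile range, the spread of C. brenneri was 0.88 times that of C. briggsae and 0.91 times that of C. remanei, against 0.79 and 0.81 by SD. T19F4.1 lay above the median, at 0.023 with an mRNA limit of 10, at 0.024 with one of 200, at 0.11 scaled to the summed signal and at 0.63 on the mRNA-weighted mean, and from -0.20 to 0.14 with a library left out. On the mRNA-weighted mean unc-51 was at 0.50 and lite-1 at 0.20. Of 302 values of the named genes' differences between states under an alternative, 272 kept their call, 19 lost it and 11 gained it, and the sign changed in none. Of 321 such values of their TE, 264 stayed, 24 moved, 22 lost their call, 1 gained it and 10 changed sign, and sod-1 was the only one called beyond 2-fold. The cause of these changes was not tested. Depth limits transcripts with few footprints, 198 of 14652 having an RPF signal under 10.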
